A study of Rattus norvegicus with 8 samples.

Results

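The 8 arrays of the series were compared by the replicate number in their titles. The 4 arrays numbered 1 and 2 (Occlusion 1, Occlusion 2, Control 1 and Control 2, called the lower-numbered arrays) were set against the 4 numbered 3 and 4 (Occlusion 3, Occlusion 4, Control 3 and Control 4, called the higher-numbered arrays), so all 8 of the 8 arrays entered. The split was chosen by measured values: earlier signals of these same arrays for habenula and hypothalamus genes, with Gpr151, Chrna3, Oxt, Avp and Pmch as markers. The differences along it are therefore given as a description, without a test. The labels use the numbers only to name animals and say nothing on how each tissue block was cut, and whether the blocks differed was not tested.

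Each array held medial thalamus RNA of 1 rat, a male Sprague-Dawley that was conscious during the sessions. Occlusion rats had repeated tracheal occlusions of 3 to 10 breaths, each with about 30 s of recovery, in daily sessions over 10 days. Control rats had the surgery and the daily sessions but no occlusion. All were killed by anaesthetic overdose on the last day (within 10 min of the trial, per the labels), and 1 µg of total RNA per rat was labelled with Cy3 for a 1-channel Agilent array. The labels give no age. Either set of 4 held 2 occlusion and 2 control arrays and 2 arrays of each slide, and the slides were scanned separately, so slide and scan are 1 batch. Number set, treatment and slide thus crossed fully, with 1 array in each combination.

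The habenula is a small paired nucleus on the dorsal and medial edge of the thalamus, beside the third ventricle. Its medial part is known for neurons that carry nicotinic acetylcholine receptors and the receptor Gpr151, and that release acetylcholine or substance P. The hypothalamus lies below the thalamus, and its paraventricular, supraoptic and lateral groups make oxytocin, vasopressin and melanin-concentrating hormone. The reticular nucleus and the zona incerta wrap the lateral and ventral sides of the thalamus with inhibitory neurons.

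Levels are log2 processed signal minus the 75th percentile of the same array, so 0 means a signal equal to that percentile. Each probe has its own brightness, so levels are compared between arrays and not between genes. The lowest signal that counted as well above background lay between -5.72 and -5.26 on the 8 arrays, and values under it are not reliably measured. A probe was kept where it was well above background on at least 4 arrays and had at least 3 values in either set, which left 26990 probes and 11793 named genes, each gene read from its brightest kept probe. The share of spots well above background ran from 65.0% to 71.6%, and that of saturated spots from 1.05% to 1.55%. For these and 3 other measures of array quality, none of the differences between the sets passed an exact two-sided permutation test, for which the 70 ways to divide the arrays set a floor of 0.0286. The p-values of these exact tests ran from 0.314 for the 75th percentile to 0.943 for the share of outlier spots, with the lowest adjusted p at 0.810 over the 5 measures. Mean 75th percentiles were 1620.5 ± 151.1 (SD, n = 4) on the lower-numbered and 1804 ± 318 (SD, n = 4) on the higher-numbered arrays. Of the summed squared deviations over 26054 probes with a value on every array, the number set took 12.2%, treatment 16.7% and slide 34.1%.

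The probes that read 4 of the 5 marker genes are shown because the largest differences rest on them, each a single stretch of 60 bases. The Oxt and Avp genes are neighbours that encode related precursors with a shared type of carrier protein, neurophysin. The capitals mark the longest run that the Oxt probe and the dimmer of the 2 Avp probes have in common, 10 bases, and the best ungapped alignment of the pair matched 35 of 51 bases (68.6%). The brighter Avp probe shared a run of at most 6 bases with the Oxt probe. In the rat assembly rn3 the Oxt probe lies at chr3:118100336-118100479 on the plus strand, in pieces over 144 bases. The dimmer Avp probe lies at chr3:118110779-118111063 on the minus strand. The brighter one lies at chr3:118110655-118110714, separated from the Oxt probe by 10175 bases. The Chrna3 probe lies at chr8:58591650-58591709 on the minus strand and the Pmch probe at chr7:24799534-24799593 on the plus strand. Whether a probe lies in coding or untranslated sequence was not looked up, since no rn3 annotation was used.
Oxt: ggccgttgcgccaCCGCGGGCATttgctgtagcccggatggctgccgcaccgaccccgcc
Avp: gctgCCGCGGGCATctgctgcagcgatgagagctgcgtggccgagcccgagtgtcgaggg
Chrna3: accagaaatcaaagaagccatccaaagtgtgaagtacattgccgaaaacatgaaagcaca
Pmch: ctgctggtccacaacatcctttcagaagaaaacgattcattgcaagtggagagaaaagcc

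Habenula genes stood higher on the lower-numbered arrays, and for Gpr151, Chrna3, Chrnb4 and Pou4f1 Occlusion 4 read like those arrays while the rest of its set was lower. Of 13 listed genes 11 were matched to a probe and 9 were kept. All 9 differed in the same direction, 8 of them by at least 1 on the log2 scale, a size that 0.848% of all 11793 genes reached in that direction. The sets did not overlap for 2 of the 9, Chrna5 and Chat, as for 1.52% of all genes. The median of the list was 2.26 against 0.03 over all genes. It was 1.42 with normexp background correction and 1.35 in the occlusion arrays alone. The values chose the split, so these counts carry no independent weight. In every sentence of 8 values below, the order is Occlusion 1, Occlusion 2, Control 1 and Control 2, and then Occlusion 3, Occlusion 4, Control 3 and Control 4.

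Gpr151, an orphan receptor known from habenular neurons and their axons, read -0.49, 0.83, 1.08 and 1.37, and then -4.99, 0.65, -6.25 and -2.36. Occlusion 4 lay among the lower-numbered arrays, so the sets overlapped, while the rest of its set lay below all of them. The means were 0.70 ± 0.82 and -3.24 ± 3.05 (SD, n = 4 each), a difference of 3.94 ± 1.41 (SE). On Control 3 the probe was not well above background, so its level there is only an upper bound.

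The nicotinic receptor subunits followed the same arrays. Chrna3 read 0.82, 1.33, 1.15 and 1.94, and then -3.32, 1.36, -5.78 and -1.39. Its difference was 3.59 ± 1.35 (SE), and it too was not well above background on Control 3, as was Chrnb4. Chrnb4, a subunit that assembles with Chrna3, read -2.39, -2.68, -1.89 and -1.27, and then -4.35, -2.65, -6.40 and -3.80. Only Occlusion 4 overlapped, by a margin of hundredths of a unit, and the difference was 2.25 ± 0.77 (SE). Chrna5, an accessory subunit of the same receptors, read -4.54, -3.80, -4.01 and -2.97, and then -5.78, -5.26, -7.62 and -5.70. Here the sets did not overlap, the difference was 2.26 ± 0.57 (SE), and 3 of the 4 higher-numbered arrays were not well above background. The probes of these 3 genes lie within 20741 bases of each other on chromosome 8 (rn3, 58585098 to 58605838). Chrnb3, a further nicotinic subunit, was well above background on 1 array only and was not kept.

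Pou4f1, a transcription factor of habenular neurons, read -4.31, -3.12, -3.32 and -2.41, and then -5.51, -3.61, -7.50 and -6.03. It was well above background on 1 of the 4 higher-numbered arrays only. Its difference as read was 2.38 ± 0.76 (SE), and Occlusion 4 again lay within the lower-numbered range.

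The cholinergic genes moved with them but with other arrays lowest. Slc5a7, the choline transporter of cholinergic terminals, read 0.90, 1.75, 1.98 and 2.68, and then -1.87, 1.56, 0.40 and -0.70. Slc18a3, which loads acetylcholine into vesicles, read 1.18, 2.15, 2.14 and 2.59, and then -2.77, 1.62, 1.03 and -0.90. Both were lowest on Occlusion 3, whereas Gpr151 and the nicotinic subunits were lowest on Control 3. The differences were 1.98 ± 0.47 for Slc5a7 and 2.27 ± 0.58 for Slc18a3 (SE). Chat, the enzyme that makes acetylcholine, did not overlap between the sets, with a difference of 0.94 ± 0.23 (SE), but lay between -5.71 and -4.16, near the background limit.

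Among the peptides of the habenula, Tac1, the substance P precursor, read 2.02, 3.26, 3.42 and 4.30, and then 1.40, 2.82, 1.38 and 2.18, a difference of 1.31 ± 0.45 (SE). Tac3, the neurokinin B precursor, was not kept because outlier flags removed its spots on 4 arrays. With the flagged spots left in it read 3.02, 3.63, 3.72 and 4.37, and then 0.96, 3.11, 0.14 and 1.29, so Occlusion 4 was again the highest of its set. In such bulk tissue, fewer cells of a type and less RNA per cell cannot be told apart.

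**Figure D1:**
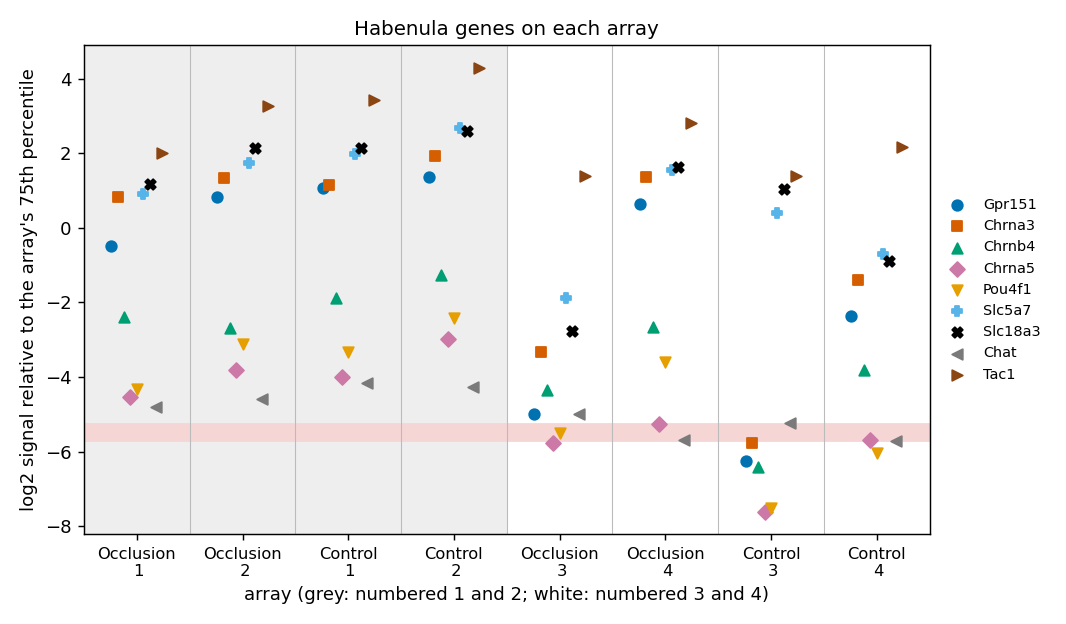
Log2 signal relative to the array's 75th percentile (vertical axis) of the 9 kept habenula genes on each of the 8 arrays (horizontal axis), 1 point per gene and array. The pink band spans the lowest signals that counted as well above background (-5.72 to -5.26). Occlusion 4 resembles the lower-numbered arrays in most genes, with Gpr151 at 0.65, while Gpr151 falls to -6.25 on Control 3.

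Genes of hypothalamic neuropeptides stood higher on the higher-numbered arrays, with a different array leading for different peptides. Of 17 listed genes 15 were kept. Of these, 13 were lower on the lower-numbered arrays, 6 of them by at least 1, against 0.534% of all genes. The 2 that did not overlap were Oxt and Avp (no overlap in that direction was seen for 0.644% of all genes), and the median of the list was -0.86, or -0.46 without Occlusion 3. At least 1 saturated array was seen for 4 of the 15, so those differences may be understated.

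Oxt, the oxytocin precursor, read -3.20, -5.55, -4.32 and -4.80, and then 5.58, 0.34, 0.74 and 5.11. Every higher-numbered array was above every lower-numbered one, with Occlusion 3 and Control 4 far above the other 2. The means were -4.47 ± 0.98 and 2.94 ± 2.78 (SD, n = 4 each), a difference of -7.41 ± 0.70 (SE). The probe was saturated on 1 array and was well above background on 3 of the 4 lower-numbered arrays, so no exact fold is given.

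Avp, the vasopressin precursor, read -0.82, -1.80, -1.33 and -0.77, and then 5.51, 2.12, -0.50 and 5.12 on its brighter probe. Control 3 exceeded the lower-numbered arrays by a narrow margin, and the difference was -4.24 ± 0.95 (SE). The dimmer Avp probe read -3.84, -5.18, -4.01 and -3.07, and then 5.31, -0.58, -3.37 and 3.94. On that probe Control 3 overlapped the lower-numbered arrays and the difference was -5.35 ± 1.39 (SE).

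Crh and Trh encode the releasing hormones of the adrenal and the thyroid axis. Crh read -5.51, -3.17, -3.54 and -3.84, and then 0.38, -2.78, -3.53 and -0.55, a difference of -2.39 ± 0.90 (SE). Trh read -0.08, -4.67, -5.19 and -5.82, and then 2.47, -2.98, -0.67 and 0.90, a difference of -3.87 ± 1.01 (SE). Like Oxt and Avp, both were highest on Occlusion 3 and next on Control 4. Trh was well above background on 2 of the lower-numbered arrays and Crh on 3. Trh was also high on Occlusion 1, which lifted it into the range of the other set.

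The peptides of the lateral and basal hypothalamus had Pmch as their marker. Pmch, the precursor of melanin-concentrating hormone, read -1.70, -0.74, -0.31 and -0.53, and then 4.73, -0.42 and 5.07 on Occlusion 4, Control 3 and Control 4. Its spot on Occlusion 3 carried an outlier flag and was left out of the difference of -3.95 ± 1.36 (SE). With that spot kept, it read 5.47 there and the difference became -4.53. Control 3 thus lay with the lower-numbered arrays, and 3 arrays with a higher number stood apart from the rest.

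Cartpt, a peptide of arcuate and lateral neurons, read -3.49, -1.35, 2.71 and -0.66, and then 4.13, 0.68, -0.83 and 2.94. Its difference of -2.43 ± 1.30 (SE) came with wide overlap, since Control 1 was nearly as high as Control 4. Pomc, the precursor of melanocortins and of an opioid peptide of the arcuate nucleus, was near 0.48 to 1.14 on 7 arrays and reached 4.94 on Occlusion 4 alone. Gal, the galanin precursor, differed by -0.86 ± 0.39 (SE) and was highest on Occlusion 3 at 2.38. Hcrt (hypocretin), Agrp, Ghrh, Gnrh1 and Hdc (the enzyme that makes histamine) differed by between -0.66 and -0.19, with overlap. Vip and Npy, peptides that inhibitory neurons of many regions also make, went the other way at 0.48 ± 0.74 and 0.22 ± 0.25 (SE).

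**Figure D2:**
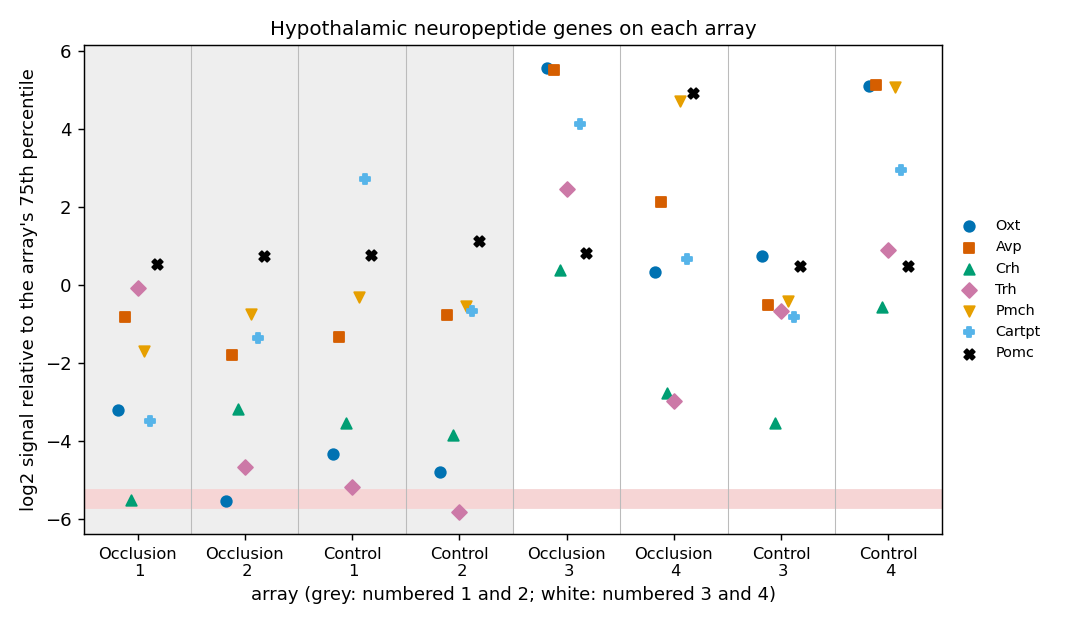
Log2 signal relative to the array's 75th percentile (vertical axis) of 7 hypothalamic neuropeptide genes on each array (horizontal axis), 1 point per gene and array, with the background limit as a pink band. Oxt reaches 5.58 on Occlusion 3 and 5.11 on Control 4, Pomc stands out on Occlusion 4 alone at 4.94, and Pmch has no point on Occlusion 3 because of an outlier flag.

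Transcription factors of the developing hypothalamus formed a shorter list. Of 11 listed genes 6 were kept, 5 of them lower on the lower-numbered arrays, where 57.5% of all genes were higher. The median of the list was -0.65 and ran from -1.10 without Control 1 to -0.20 without Occlusion 2. Six6, a homeobox factor of the hypothalamus and the eye, read -5.37, -7.64, -5.63 and -7.51, and then -3.99, -3.57, -3.78 and -4.47. It was well above background on all 4 higher-numbered arrays and on none of the others, so it passed the filter through them alone. As a bound, it was at least 2.75-fold higher there. This bound sets the mean of the bright arrays against, on each dim array, the higher of what the probe read and the floor given above. The measured means were -6.54 and -3.95. Its relative Six3 read -5.37, -7.80, -5.43 and -7.27, and then -3.89, -6.64, -3.25 and -5.00, a difference of -1.77 ± 0.71 (SE) with overlap on Occlusion 4. Nkx2-1, which marks the ventral hypothalamus, differed by only -0.45 ± 0.32 (SE). Members at the edge of the filter were Six3, Six6 and Rax, with 4 arrays well above background, and Otp, outside it with 3, whose difference was -0.08.

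Genes of the reticular nucleus and zona incerta were mostly lower on the lower-numbered arrays, and most were highest on Control 3. Of 14 listed genes 12 were kept. On the lower-numbered arrays 10 were lower, 6 of them by at least 1, and 2 were higher by at least 1. Over all 11793 genes, 0.534% were lower there by at least 1 and 0.848% higher by at least 1. By any amount, 57.5% of all genes were higher there. The sets overlapped for every kept gene. The median was -0.96, and it became -1.47 without Control 2, -0.52 without Control 3 and -1.5 without Occlusion 4.

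Some of the listed transcription factors differed widely. Dlx5, a homeobox factor of inhibitory forebrain neurons, read -3.45, -6.73, -6.18 and -7.52, and then -0.68, -4.05, 2.03 and -1.62. Isl1, a factor of hypothalamic and other ventral forebrain neurons, read -3.39, -7.61, -6.17 and -7.47, and then -1.41, -4.62, -1.03 and -2.40. In both the overlap came from Occlusion 1, the highest of its set, meeting Occlusion 4, the lowest of the other. Both were well above background on 1 of the 4 lower-numbered arrays only, where the low readings are upper bounds. The differences as read were -4.89 ± 1.35 for Dlx5 and -3.80 ± 0.95 for Isl1 (SE). Dlx1, a further homeobox factor of the list, differed by only -0.44 ± 0.27 (SE). Meis2 differed by -2.56 ± 0.97 (SE), lowest on Occlusion 2 at -7.77 and highest on Control 3 at 0.41.

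The genes of GABA synthesis and transport are given next, and then the peptide and calcium buffer genes of inhibitory neurons. Gad1, an enzyme that makes the transmitter GABA, read -2.54, -3.10, 0.07 and 0.29, and then -0.83, -1.78, 2.06 and -0.65. Its difference of -1.02 ± 0.58 (SE) was smaller than the one between occlusion and control arrays, -2.50 ± 0.58 (SE), which did not pass the test after adjustment (limma, adjusted p = 0.271, 0.0380 without Control 4). Gad2 and Slc32a1, the second such enzyme and the vesicular GABA transporter, differed by -0.83 ± 0.62 and -0.87 ± 0.58 (SE) between the number sets. Sst, the somatostatin precursor, read 0.01, 0.75, 2.18 and 2.83, and then 5.06, 1.96, 4.37 and 3.73, a difference of -2.34 ± 0.69 (SE). The members in the opposite direction were Pvalb, the calcium buffer parvalbumin (1.43 ± 0.39, SE), and Spp1, the secreted protein osteopontin (1.24 ± 0.80, SE).

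**Figure D3:**
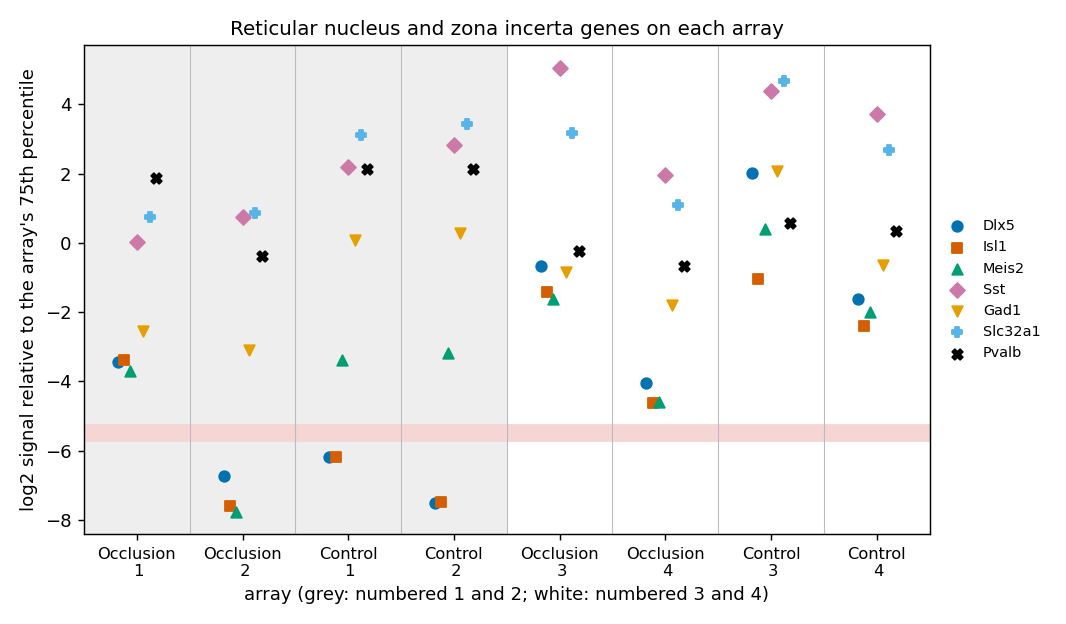
Log2 signal relative to the array's 75th percentile (vertical axis) of 7 genes of the reticular nucleus and zona incerta list on each array (horizontal axis), 1 point per gene and array, with the background limit as a pink band. Dlx5 runs from -7.52 on Control 2 to 2.03 on Control 3, and Pvalb has its highest values on lower-numbered arrays, up to 2.12.

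The listed genes of the thalamus itself differed less between the number sets. All 11 kept relay genes were well above background on all 8 arrays, the median was 0.07 (-0.17 without Control 3, 0.42 without Control 2) and none differed by as much as 1. Slc17a6, the vesicular glutamate transporter of relay neurons, lay between 3.82 and 5.5, lowest on Control 3, and was saturated on 4 arrays. Lef1, a factor of relay neurons, read 1.24, 0.97, 0.08 and -0.73, and then 0.54, 0.80, -2.11 and 0.42, with Control 3 again lowest. In the midline list Calb1, a calcium buffer, differed by -0.48 ± 0.13 (SE).

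From the lists of other neighbouring regions, the members with the widest differences are described. Slc18a2, the vesicular monoamine transporter, read -4.59, -3.29, -2.41 and -2.05, and then -0.25, -2.12, 1.03 and -0.89, a difference of -2.53 ± 0.56 (SE). A second Slc18a2 probe was well above background on the 4 higher-numbered arrays only and was at least 4.07-fold higher there. It passed the filter through those 4 arrays alone, so it adds no separate weight to the first probe. Th, which starts catecholamine synthesis, differed by -0.95 ± 1.01 (SE) with wide overlap, from -4.23 on Control 3 to 0.96 on Occlusion 3. Both belong to the midbrain list, whose 9 kept genes had a median of 0.09. On the lower-numbered arrays 5 of the 9 were higher and 4 lower. The only gene of that list without overlap, Aldh1a1, was higher there by 1.30. Slc6a3, the dopamine transporter, did not pass the filter.

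Neurod1 and Neurod2, factors of excitatory neurons from the cortex list, were higher on the lower-numbered arrays, by 2.63 ± 1.02 and 2.71 ± 1.13 (SE). Neurod1 read -0.28, -0.16, 0.05 and 0.38, and then -2.62, -0.02, -5.73 and -2.16, lowest on Control 3 as Gpr151 was. Neurod6 and Bhlhe22 of the same list differed by 0.24 and 0.08, and Emx1 and Tdo2 were not kept. Tph1, the pineal enzyme of serotonin synthesis, read -4.33, -1.18, 1.5 and 0.85, and then -4.45, -1.64, -5.45 and -1.70. Its difference was 2.52 ± 1.36 (SE). Of the other kept pineal genes, Asmt, which makes melatonin, differed by 0.89 ± 0.42 and Aanat, which makes its precursor, by 0.13 ± 0.14 (SE).

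In the striatum list Gpr6, an orphan receptor, did not overlap, with -3.69, -4.12, -3.91 and -4.27, and then -2.69, -3.39, -2.24 and -2.90. Its difference was -1.19 ± 0.25 (SE). Choroid plexus genes did not share a direction, since Sostdc1 differed by 1.48 ± 0.47 and Ttr (transthyretin) by 0.46 while Aqp1 differed by -0.44.

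The lists of glial, meningeal and blood genes had medians between -0.11 and 0.74. All 15 oligodendrocyte genes were higher on the lower-numbered arrays, but by 0.08 to 0.40 only. Mbp of that list was saturated on 6 arrays, so its difference of 0.16 says little about RNA. The median of the 15 was 0.27, and 57.5% of all genes were higher on the lower-numbered arrays. Within slide 1 that median was 0.52 and within slide 2 it was -0.04. It was 0.15 without Occlusion 3 and 0.47 without Control 3. All 7 meningeal genes were higher, with a median of 0.49 (0.76 without Control 3), led by Dcn (decorin) at 0.72. All 4 blood genes were higher, with a median of 0.74, among them Slc4a1, the anion exchanger of red cells, by 1.12. Hbb-b1, another of the 4, was saturated on 7 arrays, so its difference of 0.17 likewise says little about RNA. Microglial genes had a median of -0.11, astrocyte genes 0.11 and endothelial genes 0.04, sizes that changed by over 1.5 times without single arrays. The part of these shifts in the differences of the neuronal genes was not tested.

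Activity-induced genes had a median of -0.74, with 6 of 7 lower on the lower-numbered arrays, where 57.5% of all genes were higher. Junb, a transcription factor induced by activity, did not overlap, with -2.58, -2.97, -3.11 and -2.53, and then -2.33, -2.53, -1.31 and -2.31, where Control 2 and Occlusion 4 were nearly equal. Arc, a synaptic gene induced by activity, was between -0.88 and 0.14 on 7 arrays and 3.03 on Control 3. The median without Control 3 was -0.49.

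**Figure D4:**
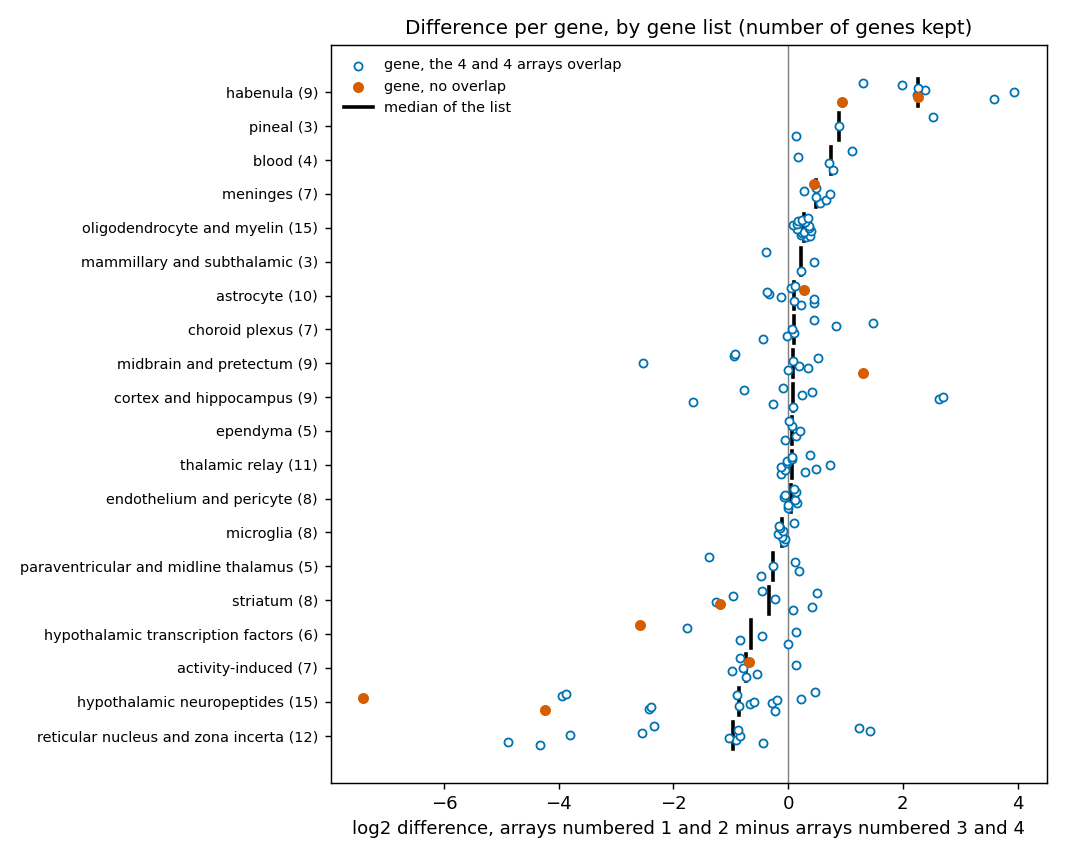
Log2 difference (lower-numbered minus higher-numbered arrays, horizontal axis) of each kept gene in the 20 lists (vertical axis, with the number of genes kept). Open points overlap between the 4 and 4 arrays, filled points do not, and bars mark list medians, from 2.26 for the habenula to -0.96 for the reticular nucleus and zona incerta.

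Of the 161 kept genes in the 20 lists, 16 were higher and 19 lower by at least 1 on the lower-numbered arrays. Over all 11793 genes 163 did so, or 1.38%. The sets did not overlap for 5 listed genes that were higher and 5 that were lower, and for 255 of all genes (2.16%), with 179 higher and 76 lower on the lower-numbered arrays. Slc1a3 of the astrocyte list, counted among the 5 higher, was saturated on 5 arrays and lacked Occlusion 3, whose spot was flagged. With that spot kept it read 5.28 there, within the lower-numbered range of 5.05 to 5.4. With a difference of at least 1 and no overlap, 19 genes were left (0.161%), 11 of them higher (0.0933%) and 8 lower (0.0678%). On the level of probes it was 50 of 26990 (0.185%), 32 higher (0.119%) and 18 lower (0.0667%). That last count was 194 without Occlusion 1, 78 without Occlusion 2 and 242 without Occlusion 4. With 1 array fewer in a set, overlap is also less likely by construction.

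Outside the lists, one of the largest differences without overlap was in Slc10a4, a relative of bile acid transporters found on synaptic vesicles. It read -4.98, -5.63, -4.66 and -6.00, and then -2.64, -4.25, -0.81 and -3.0, a difference of -2.64 ± 0.65 (SE), and was well above background on 2 of the lower-numbered arrays. Egr4, an activity-induced zinc finger factor, read -2.12, -1.62, -2.14 and -1.45, and then -0.77, -1.39, 3.16 and -0.22, with Control 3 far above the others. Hrh1, a histamine receptor, read -4.46, -4.27, -4.16 and -4.10, and then -3.54, -3.44, -3.09 and -3.09. Its difference was small at -0.96 but had a low error of 0.11 (SE). The others named by the same rule, Cdh23, Rab3b, Syt5, Rgs14, Arl10, Zfp287 and Cdh9, differed by between -1.07 and -0.85. The value of Syt5, and that of Necab3 named next, lacks Occlusion 1, whose spot was flagged.

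In the other direction Fgfr4, a fibroblast growth factor receptor, read -3.52, -3.42, -2.95 and -2.79, and then -5.34, -3.57, -6.69 and -5.41, a difference of 2.08 ± 0.59 (SE), with 1 higher-numbered array well above background. Grifin, a galectin relative, differed by 1.80 ± 0.61 and Col7a1, a collagen chain, by 1.46 ± 0.30 (SE). A2m, a protease inhibitor, read 3.10, 3.62, 3.95 and 4.36, and then 2.09, 2.90, 2.68 and 2.53, a difference of 1.21 ± 0.19 (SE). Slc17a7, a vesicular glutamate transporter, also differed by 1.21. Aldh1a1, which makes retinoic acid and belongs to the midbrain list, differed by 1.30 ± 0.31 (SE). Necab3, Upb1, Kcnab3, Iglon5 and Mcub differed by 0.94 to 1.25.

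Some larger differences with overlap were chosen after their values were seen. Esm1, a secreted product of endothelial cells, read -5.10, -1.49, 1.18 and 1.68, and then -5.28, -4.49, -7.59 and -5.90. Its difference was 4.88 ± 1.43 (SE), and Occlusion 1 was as low as the higher-numbered arrays. Calcr, the calcitonin receptor, read -3.78, -3.27, -2.13 and -2.06, and then 1.33, -2.55, 1.82 and 0.28, with Occlusion 4 the one array that overlapped. Ppp1r1c, an inhibitor of a protein phosphatase, Tfap2d, a transcription factor, and Map3k6, a kinase, differed by 2.46, 2.54 and 2.65. All 3 were as high on Occlusion 4 as on some lower-numbered array.

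The arrays within a set were not alike. The mean level of each list relative to its own mean over the 8 arrays was used to show this. For the habenula it was 0.37, 1.12, 1.27 and 1.88, and then -1.91, 0.64, -2.33 and -1.05. For the hypothalamic neuropeptides it was -0.73, -1.04, -0.63 and -1.17, and then 1.86, 0.41, -0.07 and 1.49. For the reticular list it was -0.58, -2.09, -0.16 and -0.38, and then 0.88, -0.80, 2.59 and 0.54. Occlusion 3 and Control 4 were thus low for the habenula and high for the peptides, Control 3 was low for the habenula and high for the reticular list, and Occlusion 4 was above its mean for both the habenula and the peptides. The SD of the habenula level was 0.62 among the lower-numbered and 1.32 among the higher-numbered arrays.

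**Figure D5:**
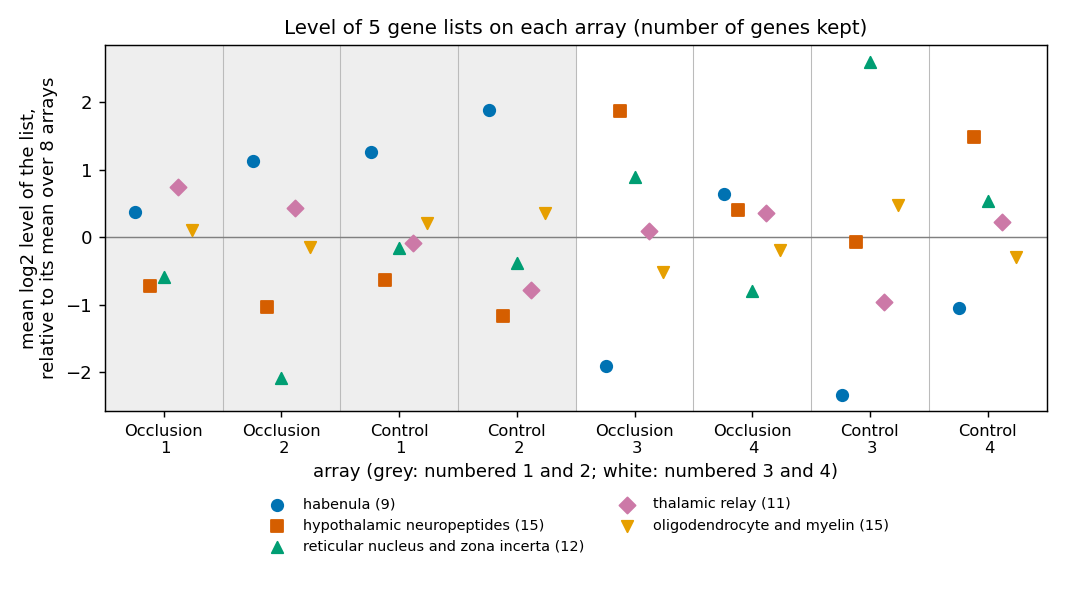
Mean log2 level of 5 gene lists on each array, relative to the mean of the list over the 8 arrays (vertical axis), for each array (horizontal axis), 1 point per list and array. The habenula list runs from 1.88 on Control 2 to -2.33 on Control 3, and the reticular list peaks on Control 3 at 2.59.

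The difference between the number sets is also given within either treatment and either slide for the 5 marker genes. These genes chose the split, so the values describe its spread and support nothing. Gpr151 differed by 2.34 among the occlusion arrays and by 5.53 among the control arrays, and Chrna3 by 2.05 and 5.13. Oxt differed by -7.33 and -7.48, Avp by -5.12 and -3.36 and Pmch by -5.95 and -2.75 in the same order. Within slide 1 and slide 2, Gpr151 differed by 3.97 and 3.90, Oxt by -9.11 and -5.71, and Avp by -6.39 and -2.09. Each such value compares 2 arrays with 2, or with 1 where the flagged Pmch spot is left out. Leaving out any 1 array kept Gpr151 between 2.93 and 5.23 and Oxt between -8.28 and -6.53.

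The treatment contrast does not use the split, so it could be tested with the number set and the slide as terms (limma, Benjamini-Hochberg over 26990 probes, two-sided). No probe passed, 0 of 26990 (0.0%), the smallest adjusted p was 0.271, and 3651 probes had an unadjusted p under 0.05. Without the term for the number set 0 passed, the smallest adjusted p was 0.220 and 3828 had an unadjusted p under 0.05. Normexp background correction gave 1 call, leaving out Occlusion 3 gave 3 (Slc15a1, Sst and Abca12) and leaving out Control 4 gave 1 (Gad1).

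Among the genes with the smallest p in that fit, Sema7a, a membrane semaphorin, differed by 0.87 ± 0.11 (SE) between occlusion and control arrays and Zfp365, a zinc finger protein, by 1.01 ± 0.15. Sult1a1, a sulfotransferase, differed by -1.04 ± 0.13 and Emx2, a homeobox factor of the cortex, by -2.76 ± 0.43. Prox1, a homeobox factor, differed by 1.57 ± 0.24 (SE) and was well above background on 4 arrays only, 2 in each number set. It read -3.45, -4.28, -4.20 and -4.62 on Occlusion 1 to 4, and -5.29, -5.83, -6.76 and -4.95 on Control 1 to 4. It may thus have passed the filter mainly through the occlusion arrays, where it was higher. Each of these genes had an adjusted p of 0.271 (limma). Between the number sets Sema7a differed by 0.64 ± 0.11 and Zfp365 by -0.14 ± 0.15 (SE). Scn4b, a sodium channel subunit, differed by -1.32 ± 0.20 (SE) between treatments and by 1.12 ± 0.20 between the number sets. Its error for the treatment contrast was 0.44 without the term for the number set.

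For the 5 marker genes the treatment difference was smaller than its own error. It was 0.54 ± 1.41 for Gpr151, 1.07 ± 1.35 for Chrna3, 0.11 ± 0.70 for Oxt, 0.62 ± 0.95 for Avp and 0.70 ± 1.36 for Pmch (SE). Of the listed genes, after Prox1 and Emx2 the smallest p-values were those of Rsph1, a gene of motile cilia (-0.79 ± 0.16), the relay factor Rorb (0.72 ± 0.16), Gad1 and the activity-induced Fosb (0.57 ± 0.13). These are occlusion minus control differences (SE), each with an adjusted p of 0.271 (limma).

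Whether the difference between the number sets was of one size in occlusion and control arrays was tested as an interaction, a contrast that the choice of the split did not use. No probe passed, 0 of 26990 (0.0%), the smallest adjusted p was 1.0 (limma) and 866 probes had an unadjusted p under 0.05. The interaction, the difference among occlusion arrays minus that among control arrays, was -3.19 ± 2.72 for Gpr151, -3.05 ± 1.04 for Pou4f1 and 0.15 ± 1.5 for Oxt (SE). The genes with the smallest unadjusted p included Cxcl13, a chemokine (2.0 ± 0.27), Adam33, a metalloprotease (-3.63 ± 0.47), and Tfap2b, a transcription factor (-5.52 ± 0.98). Tfap2b read -4.89, -2.81, 0.35 and 1.89, and then -2.36, -3.24, -3.35 and -3.33, so 2 control arrays stood above the other 6.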

How the data were processed

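Per the file headers, the authors scanned each array in 1 channel and used Agilent Feature Extraction 9.5.1.1, which gave the deposited processed intensity per spot, background-subtracted and linear, with flags. These intensities carry no scaling across arrays, and the series' value table repeats them with fewer digits. Probe positions are those of the files (rn3). Each array had 45018 spots, 43379 of them no controls, for 41012 probes.

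Control spots and spots with outlier flags were dropped, saturated ones kept, log2 taken and the 75th percentile of each array subtracted. Spots of 1 probe were averaged. Of the kept probes, 936 lacked a value on some array. Names came from a table of rat genes (assembly GRCr8, names only): 10735 probes by accession, 117 by another accession, 5473 by symbol and 3694 by synonym, while 2410 had only a name in the files and 18583 none.

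Differences have the SE of a limma 3.58.1 fit (R 4.3.3) with group and slide as terms. Treatment and interaction were tested with limma's lmFit and eBayes (threshold 0.05). The code was tested on simulated data. The split, members and 20 gene lists were chosen with earlier results of these data known. Genes were named by a rule: the 5 markers, in each list the 3 largest and 3 smallest differences, the 12 largest and 12 smallest differences without overlap among unsaturated genes, and the 6 smallest p per direction in either test. Other members of the lists were named after their values were seen. Alternatives were quantile and median scaling, normexp (offset 50), no filter, a filter on all 8 arrays, the series' value table, all probes of a gene, each array left out, single slides or groups, other covariates, array weights and a trended variance.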

Additional observations from a re-analysis of the deposited data

Results flagged for a closer look

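Within each set of 4 arrays, each of the 152 genes that the naming rule gave was examined for an array standing far from the other 3. Of 297 such groups, 14 had one, and chance alone gives about 1 in 20. Control 3 was that array in 6 of the 14: Hdc at -0.04, Vip at -0.02, Cacna1g at -0.35, Lef1 at -2.11, Ak7 (a kinase of ciliated cells) at -3.24 and Gja1 (the astrocyte gap junction protein) at 4.30, all on the log2 scale of the report. The other higher-numbered arrays lay between 2.24 and 2.63 for Vip and between 0.42 and 0.80 for Lef1.

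Occlusion 4 stood apart for Slc4a1 at -5.40 and for Fos, the immediate early gene, at 0.50, where the other 3 were between 1.13 and 1.16. Occlusion 3 stood apart for Tfap2b at -2.36. Among the lower-numbered arrays, Occlusion 1 stood apart for Hmx3 (a hypothalamic factor) at -0.26 and for Tph2 (the brain enzyme of serotonin synthesis) at -7.13. Occlusion 2 stood apart for Pvalb at -0.39, with the others between 1.88 and 2.12, and for Tal1 (a midbrain factor) at -5.68. Control 2 stood apart for Itgam (a microglial integrin) at -1.76.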

How the results depend on the processing

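The count of 50 probes without overlap and with a difference of at least 1 became 24 with normexp background correction, 92 without a filter on dim probes, 29 with probes well above background on all 8 arrays and 11 at a difference of at least 2. With 1 array left out in turn it ran from 66 to 242, and it was 46, 41 and 50 under quantile normalisation, median scaling and the series' value table. Fewer arrays in a set make overlap less likely by construction; for the other settings the cause was not tested. The treatment test gave 1 call with normexp (adjusted p = 0.0483, limma) and between 0 and 3 with 1 array left out, the cause of which was not tested. Its other alternatives gave 0, and over all of them the smallest adjusted p ran from 0.0355 to 0.663 (limma). The interaction test gave 0 calls under every alternative run. The labels do not say that the numbers pair the samples, so no pairing was assumed. Deviations of same-numbered occlusion and control arrays from their group means correlated at 0.35, 0.51, -0.07 and -0.29 for numbers 1 to 4. These correlations cannot decide on pairing, because slide was not removed from them and took 34.1% of the summed squares. Same-numbered arrays shared a slide for numbers 1 and 2 and lay on different slides for numbers 3 and 4. With the replicate number as a block the treatment test gave 0 calls, a smallest adjusted p of 0.450 (limma) and 2789 probes with an unadjusted p under 0.05. With 1 array left out, the habenula median ran from 1.76 to 2.80, the neuropeptide median from -1.19 to -0.46 (the latter without Occlusion 3) and the reticular median from -1.5 (without Occlusion 4) to -0.52 (without Control 3). With normexp the habenula median was 1.42 and that of hypothalamic transcription factors -0.13. The medians near 0 of the cortex, midbrain, choroid plexus, ependyma, endothelium, mammillary and relay lists changed sign without some single arrays. Of the other values, 94 moved by more than the spread between replicates and 3086 did not: 30 moved in occlusion arrays alone, 28 in control arrays alone, 12 in either slide alone, 10 with normexp and 1 with quantile normalisation. Keeping outlier-flagged spots, an alternative chosen after seeing the data, moved 1 value. Saturation limits Oxt, Avp, Pmch and Pomc from above, and also Hbb-b1, Mbp, Slc1a3 and Slc17a6, while dim signal limits genes near the background.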
